A study of Mus musculus with 24 samples.

Results

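Chemokines are small secreted proteins that guide leukocytes, and 10 of their genes were followed across all RNA sequencing libraries of the study: Ccl2, Ccl5, Ccl7, Ccl9, Cxcl1, Cxcl5, Cxcl9, Cxcl10, Cxcl12 and Cx3cl1. They were chosen by name, with earlier results of these data known. Each was taken as the 1 protein-coding row of that name among the 56748 genes of the count table, and all 10 were found. The cells had been isolated from livers of C57BL/6 mice, described in the methods as females aged 3 months, with magnetic beads against Cd31, which marks endothelial cells in general, or against Cd146, taken to mark liver sinusoidal endothelium. They were cultured and transduced with lentiviruses, and RNA was taken 1 week later. The P16 shRNA construct carried a small hairpin against P16Ink4a (gene Cdkn2a), and the control nc shRNA was a non-coding hairpin, both in pLKO.1. The overexpression construct, called P16, carried P16Ink4a joined to GFP (pLenti-C-mGFP-P2A-Puro), and its empty vector lacked that insert, so that every library, controls included, came from virus-treated cultured cells. Each of the 8 combinations of cell population and construct was represented by 3 libraries, 24 in all. Nothing states which replicates were separate animals, so that the spread between them may be partly technical.

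A chemokine binds a membrane receptor on a leukocyte, and the cell moves up the gradient. In the liver, endothelial cells line the sinusoids and meet circulating leukocytes first, and their chemokines take part in the recruitment of monocytes, neutrophils and lymphocytes. Ccl2 and Ccl7 call Ccr2-bearing monocytes. Ccl5 attracts T cells and monocytes, Ccl9 acts on Ccr1-bearing cells, Cxcl1 and Cxcl5 on Cxcr2-bearing neutrophils, and Cxcl9 and Cxcl10, which interferons induce, on Cxcr3-bearing T and NK cells. Cxcl12 is made constitutively by stromal and endothelial cells and retains Cxcr4-bearing cells. Cx3cl1 (fractalkine) is made as a membrane protein on endothelium and is released by proteases such as Adam10.

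The libraries held 15409767 to 26470392 reads counted on genes, and levels are given as CPM (counts scaled to library size) after TMM normalization, so that the floor of 3 reads corresponded to 0.106 to 0.204 CPM. Against the description of the mice as female, 16 of the 24 libraries, those numbered 1, 2 and 3, carried the Y-linked transcript Ddx3y (986 to 2976 reads) and at most 4 reads of Xist. The other 8 libraries, numbered 4, 5 and 6, carried Xist (6698 to 17948 reads) and no read of Ddx3y. All 6 libraries of the silencing comparison in Cd31+ cells belonged to the Ddx3y libraries. In the Cd146+ cells, 1 nc shRNA library (number 5) and 2 P16 shRNA libraries (5 and 6) carried Xist. Defining endothelial genes were present, Pecam1 with a median of 145 CPM. In the 3 Cd146+ libraries numbered 3, however, Pecam1 reached at most 10.1 CPM, against at least 61.5 CPM elsewhere. In those 3 libraries Eng reached 293 CPM, while every other endothelial marker of the list reached at most 11.6 CPM. Of the 6 sinusoidal markers, which summed to 6.31 to 446.5 CPM, Stab1 had a mean of 95.9 CPM, whereas Stab2 reached at most 0.962 CPM and Clec4g exceeded 3 reads in 1 library. The 10 mesenchymal markers summed to 6638 to 51130 CPM. Among them the collagen gene Col1a1 had a median of 10943 CPM, with its lowest value (460.2 CPM) in the Cd146+ empty vector library 4, and Acta2 a median of 2964 CPM, while Tagln and Des had medians of 12.8 and 2.18 CPM and Lrat exceeded 3 reads in no library. The 10 macrophage markers summed to 14.9 to 379 CPM, with Clec4f, Marco and Timd4 at or under 3 reads in every library. The 6 hepatocyte markers summed to at most 2.16 CPM, the 6 lymphoid and the 4 neutrophil markers to at most 0.51 and 0.738 CPM, and the 4 cholangiocyte markers to 4.76 to 146 CPM. In such bulk libraries, more cells of a type and more RNA per cell cannot be told apart.

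**Figure D1:**
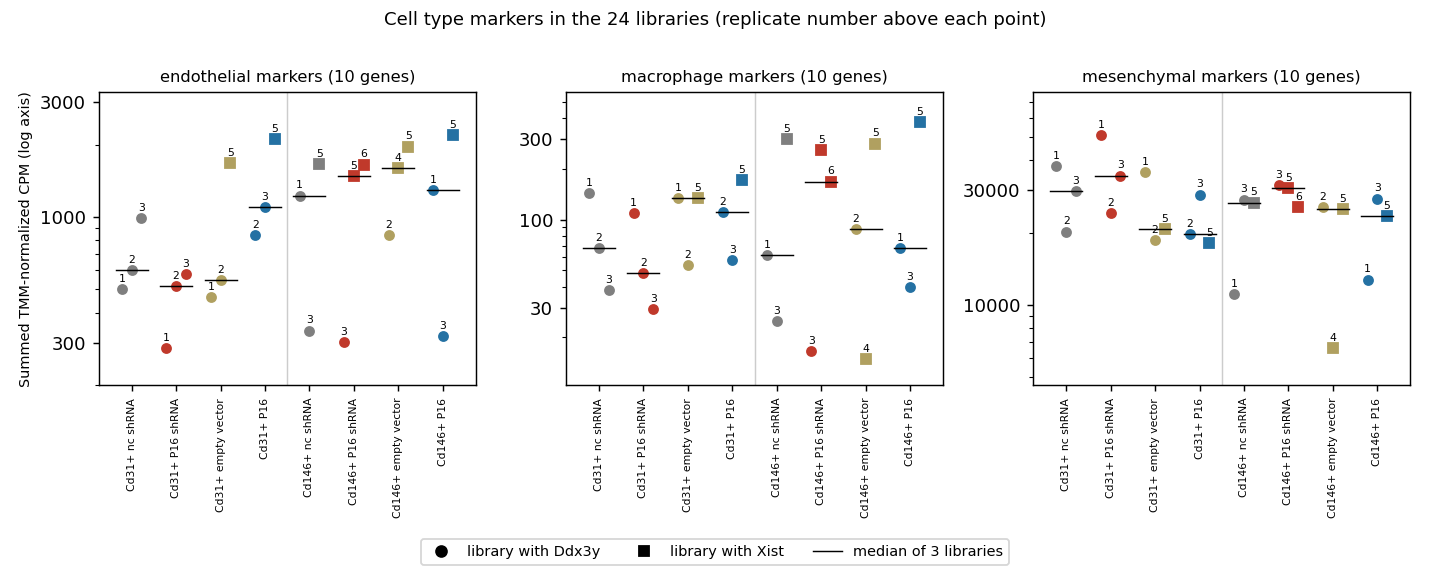
Summed TMM-normalized CPM of 10 endothelial, 10 macrophage and 10 mesenchymal marker genes (log axis) in each of the 24 libraries, by population and construct, with the replicate number above each point, squares for libraries with Xist and a line at the median of 3. The 3 Cd146+ libraries numbered 3 lie at 302 to 336 CPM for the endothelial markers, most of it Eng. All other Cd146+ libraries lie at 839 CPM or more.

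Cdkn2a was lower with P16 shRNA in every library. In Cd31+ cells it lay at 9.22, 5.12 and 5.66 CPM with P16 shRNA, against 58.0, 36.2 and 75.9 CPM with nc shRNA (log2 fold change -3.08 ± 0.35 SE, edgeR adjusted p = 0.0218). In Cd146+ cells it lay at 7.79, 11.3 and 25.7 CPM in replicates 3, 5 and 6, against 196, 126 and 94.5 CPM in nc shRNA replicates 1, 3 and 5 (log2 fold change -3.21 ± 0.53 SE, edgeR adjusted p = 0.361). With the P16 construct it lay at 137 to 330 CPM in Cd31+ cells and at 228 to 834 CPM in Cd146+ cells, above the empty vector libraries of each population (32.5 to 79.9 and 69.6 to 104 CPM). The reads of the gene count the construct together with the endogenous transcripts. Counted per gene, they do not tell the P16Ink4a transcript from any other transcript of Cdkn2a.

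To compare the chemokines with each other, the FPKM values (fragments scaled to gene length and library size) of the 12 control libraries, with nc shRNA or empty vector, were used. Cxcl12 had the highest level per length, with a median of 290 FPKM (124 to 644), and was the only one whose range did not overlap that of the next gene. Ccl2 (median 58.3 FPKM, 11.2 to 116) and Ccl7 (41.2 FPKM, 4.81 to 132) followed and overlapped each other, then Cx3cl1 with a median of 12.9 FPKM (5.61 to 21.2). Lower levels were found for Cxcl1 (median 2.23 FPKM), Ccl9 (0.888 FPKM), Ccl5 (0.474 FPKM) and Cxcl10 (0.177 FPKM), each overlapping its neighbours in the order. Cxcl5 and Cxcl9 had medians of 0 FPKM, and Cxcl9 had at most 3 reads in all 12 control libraries. Of the summed CPM of the 10 genes, Cxcl12 took 76.4 to 97.8% in the 24 libraries. The spread between control libraries was wide, with the highest value of Ccl7 27.4 times the lowest and that of Cx3cl1 3.79 times the lowest.

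**Figure D2:**
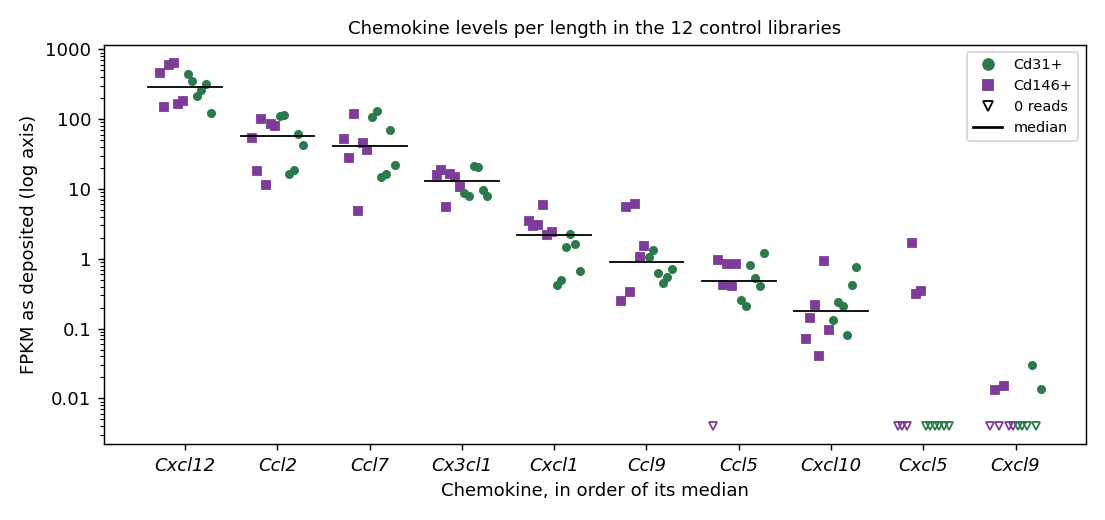
Deposited FPKM (log axis) of the 10 chemokines in the 12 control libraries, 6 of Cd31+ cells (circles) and 6 of Cd146+ cells (squares), in the order of their medians (lines), with open triangles for libraries with 0 reads. The points of Cxcl12 lie at 124 FPKM or more, above all points of Ccl2, while the other neighbours overlap.

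In the deposited table, Ccl2 (chr11:81926397-81928279) and Ccl7 (chr11:81936538-81938351) lie side by side on the plus strand, and Ccl5 (chr11:83416604-83421344) and Ccl9 (chr11:83463745-83469462) further along the same chromosome on the minus strand. Cxcl5 (chr5:90907219-90909483), Cxcl1 (chr5:91039100-91040974), Cxcl9 (chr5:92469206-92475938) and Cxcl10 (chr5:92494497-92496748) lie on chromosome 5, Cxcl12 (chr6:117145496-117158328) on chromosome 6 and Cx3cl1 (chr8:95498637-95509055) on chromosome 8. The table names no genome build, and none of the 10 positions equals that of the GRCm38 annotation, so these positions are not to be read with the GRCm38 positions of the promoters. Promoter sequences of RefSeq (GRCm38.p6) were at hand for 6 of the 10 genes (Ccl9, Cx3cl1, Cxcl1, Cxcl9, Cxcl10 and Cxcl12). The 250 bases before the start were searched on both strands for a κB motif (GGNNTTTCC, in 4.93% of 32851 promoters), the core of an interferon-stimulated response element (GAAANNGAA, 7.13%), a STAT motif (TTCNNNGAA, 7.02%) and an AP-1 motif (TGANTCA, 6.75%). Shown are those of Cxcl10, with the greatest fold change after silencing, and of Ccl9, which passed the adjusted test without a replicate block. Also shown are those of 1 gene with the opposite sign (Cx3cl1) and of 1 with a small difference (Cxcl1). Each is given as the 250 bases before the start in the direction of transcription, with the motif matches in capitals.
Cxcl10 (chr5:92348890-92349139, minus strand): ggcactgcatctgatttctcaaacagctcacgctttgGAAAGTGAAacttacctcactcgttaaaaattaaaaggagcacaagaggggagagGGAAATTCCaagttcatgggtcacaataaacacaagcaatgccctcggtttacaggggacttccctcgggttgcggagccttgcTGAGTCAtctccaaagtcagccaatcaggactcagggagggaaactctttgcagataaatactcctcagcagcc
Ccl9 (chr11:83578637-83578886, minus strand): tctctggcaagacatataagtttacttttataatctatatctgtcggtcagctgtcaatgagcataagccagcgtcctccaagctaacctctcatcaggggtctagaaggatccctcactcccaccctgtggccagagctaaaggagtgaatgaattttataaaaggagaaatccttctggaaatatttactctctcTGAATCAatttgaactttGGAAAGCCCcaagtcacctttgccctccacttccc
Cxcl1 (chr5:90890995-90891244, plus strand): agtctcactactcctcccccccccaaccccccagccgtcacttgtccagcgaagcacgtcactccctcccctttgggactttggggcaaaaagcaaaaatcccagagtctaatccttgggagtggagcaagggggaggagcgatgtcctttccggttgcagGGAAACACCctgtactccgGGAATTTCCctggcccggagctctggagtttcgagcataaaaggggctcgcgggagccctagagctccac
Cx3cl1 (chr8:94771930-94772179, plus strand): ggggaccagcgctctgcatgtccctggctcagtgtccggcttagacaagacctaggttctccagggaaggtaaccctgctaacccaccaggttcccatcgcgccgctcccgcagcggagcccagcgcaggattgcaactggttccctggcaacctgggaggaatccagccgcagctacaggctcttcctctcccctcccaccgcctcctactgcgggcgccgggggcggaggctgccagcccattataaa
The Cxcl10 window held the interferon core at -213, a κB motif at -158 and an AP-1 motif at -74. That of Ccl9 held an AP-1 motif at -53 and a κB motif at -35, and that of Cxcl1 κB motifs at -89 and -70. The Cxcl9 window held an interferon core at -175 and κB motifs at -130 and -42, those of Cx3cl1 and Cxcl12 held none of the 4, no window held the STAT motif, and no matches overlapped. Whether any of these letters is bound in the cells was not measured.

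The first question was which chemokines differed when P16Ink4a was silenced. In Cd31+ cells, Ccl9 rose, and Ccl2, Ccl5 and Cxcl10 were higher in all 3 P16 shRNA libraries than in any nc shRNA library, while Ccl7, Cxcl1, Cxcl12 and Cx3cl1 overlapped between the groups. In Cd146+ cells the same 4 genes, Ccl2, Ccl5, Ccl9 and Cxcl10, were higher in all 3 P16 shRNA libraries, and Cx3cl1 was lower on average. Of the 8 members tested in Cd31+ cells, 4 reached an unadjusted p below 0.05, against 19.8% of all genes tested, and 1 an adjusted p under 0.05, against 1.30%. There, 4 members did not overlap between the groups, against 27.4% of all genes. Of the 9 members tested in Cd146+ cells, 5 reached an unadjusted p below 0.05, against 11.6%, and none passed adjustment, against 0% of all genes (DESeq2's Wald test passed 3 members, against 2.2% of all genes). There, 4 members did not overlap, against 20.5%. Cxcl5 and Cxcl9 in Cd31+ cells and Cxcl9 in Cd146+ cells failed the filter on low counts and were not tested. The median log2 fold change of the tested members was 1.38 in Cd31+ and 1.63 in Cd146+ cells, against 0.00 and 0.03 over all genes tested. Since the members were chosen with earlier results of these data known, these medians and shares describe them and do not test chemokines as a group.

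**Figure D3:**
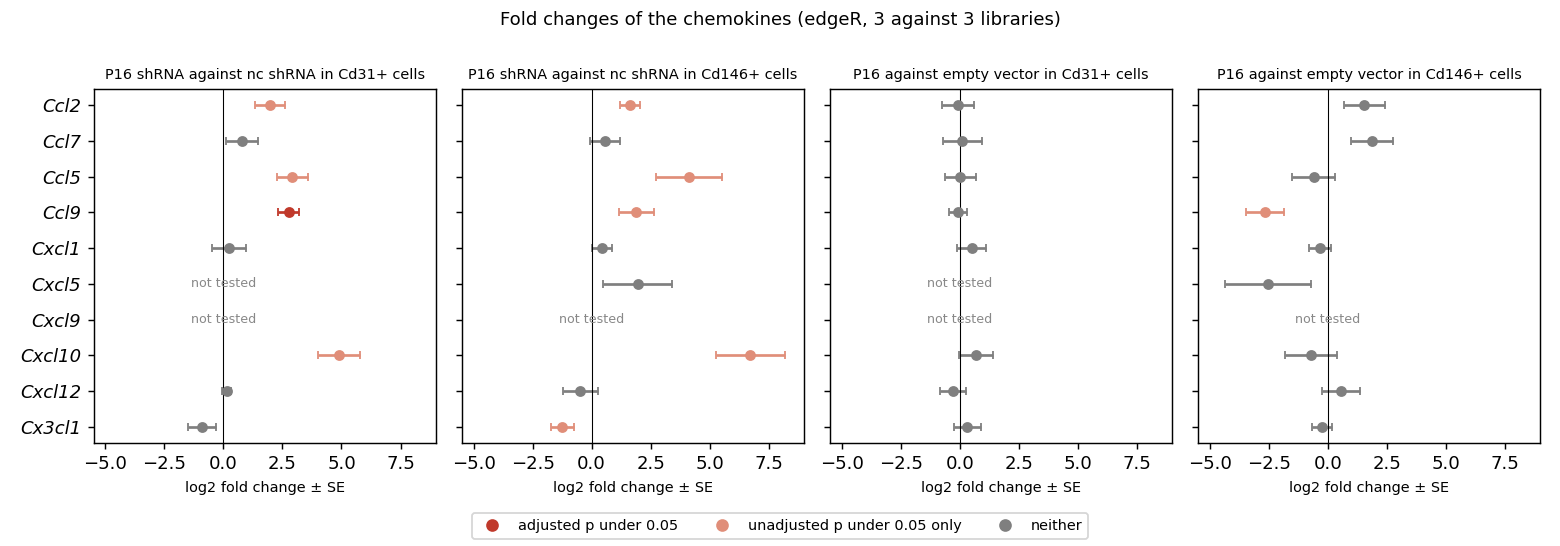
Log2 fold change with its SE for the 10 chemokines after silencing and overexpression in each population (edgeR, 3 against 3 libraries), in dark red where the adjusted p is under 0.05. After silencing, Cxcl10 has the highest fold change in both populations (4.89 and 6.72). In these fits, without a replicate block, only Ccl9 in Cd31+ cells passes the adjusted test.

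Ccl2, the main monocyte attractant, lay at 364, 206 and 312 CPM in P16 shRNA replicates 1, 2 and 3 of the Cd31+ cells and at 134, 21.5 and 72.3 CPM in the nc shRNA replicates. The lowest silenced library was above the highest control, and nc shRNA replicate 2 was far below the other 2 controls. The mean was 3.87 times higher (log2 fold change 1.96 ± 0.64 SE, edgeR unadjusted p = 0.0212, adjusted p = 0.175). Leaving out 1 library gave log2 fold changes between 1.5 (without nc shRNA library 2) and 2.64 (without nc shRNA library 1), and the unadjusted p rose above 0.05 without nc shRNA library 3 (edgeR unadjusted p = 0.0636) or P16 shRNA library 1 (0.0512), and with all genes of at least 1 count tested (0.0617). In Cd146+ cells, Ccl2 lay at 459, 205 and 178 CPM in P16 shRNA replicates 3, 5 and 6 and at 62.7, 117 and 91.8 CPM in nc shRNA replicates 1, 3 and 5. Again the groups did not overlap, with library 3 highest in both (log2 fold change 1.63 ± 0.42 SE, edgeR unadjusted p = 0.00705, adjusted p = 0.382). Ccl7, which shares the receptor Ccr2 and the chromosomal neighbourhood, lay at 111, 71.3 and 123 CPM with P16 shRNA and at 107, 13.5 and 56.9 CPM with nc shRNA in Cd31+ cells. The groups overlapped, since replicate 1 was about equally high under both constructs. Its log2 fold change was 0.79 ± 0.68 SE (edgeR adjusted p = 0.567) in Cd31+ and 0.57 ± 0.64 SE (adjusted p = 0.724) in Cd146+ cells, where the second value became -0.20 without P16 shRNA library 3.

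Ccl5, an attractant of T cells and monocytes, was low in the controls. In Cd31+ cells, 3, 11 and 7 reads were counted with nc shRNA (0.204, 0.511 and 0.393 CPM) and 28, 29 and 117 reads with P16 shRNA (1.5, 1.63 and 5.43 CPM). All silenced libraries were above all controls, and replicate 3 was the highest (log2 fold change 2.91 ± 0.66 SE, edgeR unadjusted p = 0.003, adjusted p = 0.0859). In Cd146+ cells, 0, 10 and 15 reads with nc shRNA stood against 409, 59 and 38 reads with P16 shRNA (17.8, 2.09 and 1.86 CPM), a log2 fold change of 4.13 ± 1.41 SE (edgeR unadjusted p = 0.0239, adjusted p = 0.404). The size depended on P16 shRNA library 3, without which the log2 fold change was 2.26 (edgeR adjusted p = 0.392).

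Ccl9, a ligand of Ccr1, rose from 4.08, 1.39 and 1.68 CPM with nc shRNA to 15.8, 20.3 and 12 CPM with P16 shRNA in Cd31+ cells. Every silenced library was well above the highest control, nc shRNA library 1. The mean was 6.71 times higher (log2 fold change 2.77 ± 0.44 SE, edgeR adjusted p = 0.0429). In this fit, without a replicate block, Ccl9 was the only member with an adjusted p under 0.05. The call was lost when any of nc shRNA libraries 2 and 3 or P16 shRNA libraries 1, 2 and 3 was left out (adjusted p = 0.106 to 0.156), while the log2 fold change stayed between 2.48 and 2.94 in these 5 fits. Of all genes tested, 0 to 0.243% passed adjustment in these fits, against 1.30% with all 6 libraries, so the loss was not particular to Ccl9. In Cd146+ cells, Ccl9 lay at 5.27, 10.1 and 8.65 CPM with P16 shRNA and at 0.764, 1.04 and 4.64 CPM with nc shRNA. The groups lay apart by little, since nc shRNA library 5 was close to P16 shRNA library 3 (log2 fold change 1.9 ± 0.73 SE, edgeR unadjusted p = 0.037, adjusted p = 0.422). Without nc shRNA library 5 the log2 fold change was 3.14. The empty vector libraries 2 and 4 of the same population, with 17.1 and 18.9 CPM, were higher than any P16 shRNA library of the Cd146+ cells.

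Of the neutrophil attractants, Cxcl1 lay at 0.911, 4.5 and 4.55 CPM with P16 shRNA and at 0.951, 4.32 and 3.09 CPM with nc shRNA in Cd31+ cells. The values followed the replicate number more than the construct (log2 fold change 0.25 ± 0.72 SE, edgeR adjusted p = 0.891), and the sign turned without nc shRNA library 1 (-0.17). In Cd146+ cells the log2 fold change was 0.44 ± 0.42 SE (edgeR adjusted p = 0.684), and -0.12 without P16 shRNA library 3. Cxcl5 was not found in Cd31+ cells beyond 1 read in 2 of the 12 libraries. In Cd146+ cells it was found in all 6 libraries that carried Xist, with 11 to 69 reads, and with at most 6 reads in the 6 libraries that carried Ddx3y. With P16 shRNA it had 6, 42 and 14 reads and with nc shRNA 0, 0 and 12 reads in Cd146+ cells, a log2 fold change of 1.95 ± 1.46 SE (edgeR adjusted p = 0.593). The number of Xist libraries also differed between those groups. With a term for them the log2 fold change was 1.64 ± 0.91 SE (edgeR adjusted p = 0.497), and within same-numbered pairs there were 6 against 0 reads in pair 3 and 42 against 12 reads in pair 5.

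Cxcl10, the interferon-induced ligand of Cxcr3, had the greatest fold change. With nc shRNA, 8, 4 and 17 reads were counted in Cd31+ cells (0.544, 0.186 and 0.955 CPM), and with P16 shRNA 192, 108 and 704 reads (10.3, 6.08 and 32.7 CPM). Every silenced library was above every control, with replicate 3 highest under both constructs, and the mean was 29.1 times higher (log2 fold change 4.89 ± 0.89 SE, edgeR unadjusted p = 0.0015, adjusted p = 0.0682). In Cd146+ cells, 3, 12 and 4 reads with nc shRNA (0.164, 0.501 and 0.213 CPM) stood against 1951, 262 and 72 reads with P16 shRNA (85.0, 9.28 and 3.52 CPM). All 3 silenced libraries were higher, but they differed widely among themselves, with library 3 highest (log2 fold change 6.72 ± 1.47 SE, edgeR unadjusted p = 0.00312, adjusted p = 0.382). Without P16 shRNA library 3 the log2 fold change was 4.4 (edgeR adjusted p = 0.298). That library had the lowest endothelial sum (302 CPM) of the 12 Cd146+ libraries and a macrophage sum of 16.6 CPM. The nc shRNA library 3, with an endothelial sum of 336 CPM, held 0.501 CPM of Cxcl10. Most of either endothelial sum came from Eng. Without the 3 Cd146+ libraries numbered 3, the log2 fold change of Cxcl10 was 5.04 (edgeR adjusted p = 0.255) and that of Ccl5 2.28 (adjusted p = 0.538). Cxcl9, its neighbour on chromosome 5, exceeded 3 reads in 1 of the 24 libraries, with 11 reads in P16 shRNA library 3 of the Cd31+ cells, which was also the library with the most Cxcl10 of that population.

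Cxcl12 differed little. In Cd31+ cells it lay at 3575, 2334 and 2523 CPM with P16 shRNA and at 2887, 2168 and 2667 CPM with nc shRNA (log2 fold change 0.13 ± 0.20 SE, edgeR adjusted p = 0.757). The groups overlapped, and the mean was 1.09 times higher. In Cd146+ cells it lay at 5108, 1473 and 835 CPM with P16 shRNA and at 3779, 5002 and 1485 CPM with nc shRNA (log2 fold change -0.47 ± 0.74 SE, edgeR adjusted p = 0.812). There the value depended on which numbers stood in each group, since the 2 libraries numbered 3 were alike (ratio 1.02), as were the 2 numbered 5 (ratio 0.992). Without P16 shRNA library 3 the log2 fold change was -1.57 (edgeR unadjusted p = 0.0324, adjusted p = 0.358). Cx3cl1, the membrane-bound chemokine, lay at 13.9, 49.0 and 19.3 CPM with P16 shRNA and at 31.1, 83.4 and 38.6 CPM with nc shRNA in Cd31+ cells. The groups overlapped because replicate 2 was highest under both constructs (log2 fold change -0.90 ± 0.59 SE, edgeR adjusted p = 0.449). In Cd146+ cells it lay at 9.71, 24.9 and 19.1 CPM with P16 shRNA and at 62.3, 22.5 and 42.4 CPM with nc shRNA (log2 fold change -1.24 ± 0.47 SE, edgeR unadjusted p = 0.0372, adjusted p = 0.422). Only nc shRNA library 3 was below a silenced library.

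**Figure D4:**
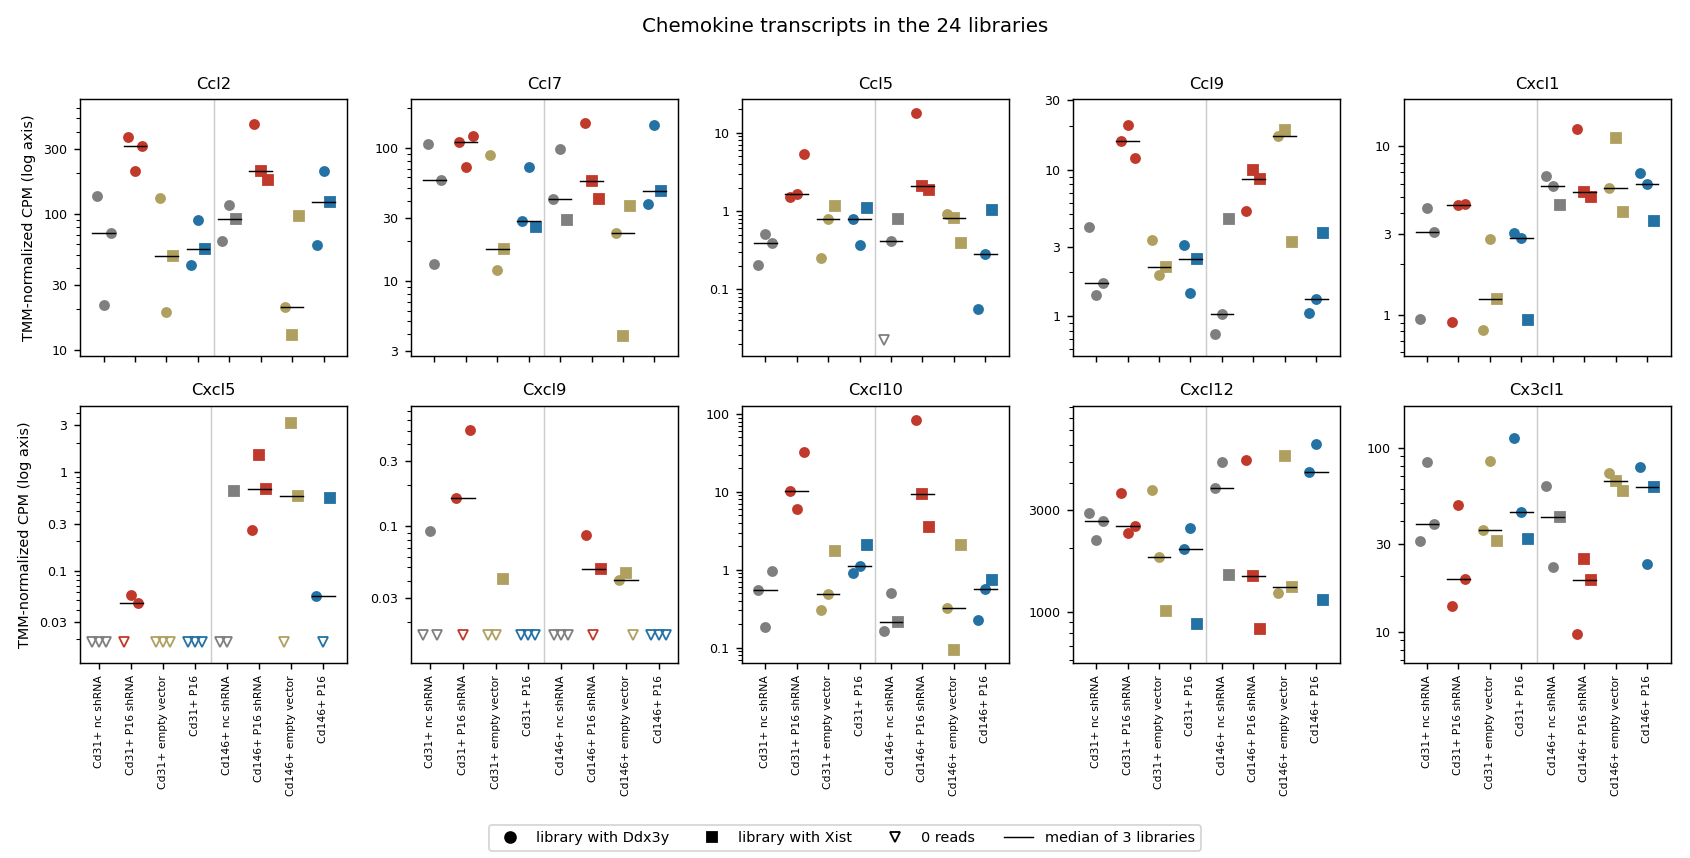
TMM-normalized CPM (log axis) of the 10 chemokines in the 24 libraries by population and construct, with circles for libraries with Ddx3y, squares for libraries with Xist, open triangles for 0 reads and lines at the median of 3. In both populations the 3 P16 shRNA libraries lie above the 3 nc shRNA libraries for Ccl2, Ccl5, Ccl9 and Cxcl10, and overlap them for the other genes.

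The replicate numbers pair the libraries within a population, since same-numbered libraries deviated together, and the differences were also read within pairs. In the 5 same-numbered pairs of P16 shRNA and nc shRNA libraries (3 of Cd31+ and 2 of Cd146+ cells), Cxcl10 was 18.9 to 170 times higher, Ccl2 2.23 to 9.58 times and Ccl9 2.17 to 14.5 times. Ccl5 was higher in all 5 pairs, by 2.61 to 42.7 times in the 4 with more than 3 reads in both libraries. Cx3cl1 was 0.431 to 0.587 times its control in all 5 pairs, and Cxcl12 0.946 to 1.24 times. With the replicate number as a block in Cd31+ cells, 5 of the 8 members passed adjustment, against 18.8% of all genes in that fit. Ccl2 rose (log2 fold change 2.25 ± 0.39 SE, edgeR adjusted p = 0.0289), as did Ccl5 (2.77 ± 0.45 SE, adjusted p = 0.00462), Ccl9 (2.84 ± 0.33 SE, adjusted p = 0.00189) and Cxcl10 (4.84 ± 0.24 SE, adjusted p = 3.18e-05), and Cx3cl1 fell (-0.96 ± 0.11 SE, adjusted p = 0.000827). In Cd146+ cells, only 2 pairs exist within the silencing comparison, and none of the members passed adjustment with the block, against 0% of all genes (lowest edgeR adjusted p = 0.0873, Cxcl10). When all 12 Cd146+ libraries entered the blocked fit, 8 members had an unadjusted p under 0.05, against 27.4% of all genes, and 4 passed adjustment, against 8.33%. These were Ccl2 (1.45 ± 0.23 SE, edgeR adjusted p = 0.0191), Ccl9 (1.68 ± 0.28 SE, adjusted p = 0.0114), Cxcl10 (6.7 ± 0.78 SE, adjusted p = 0.01), which rose, and Cx3cl1 (-0.98 ± 0.13 SE, adjusted p = 0.0058), which fell. In that fit Cxcl12 had a log2 fold change of 0.05.

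**Figure D5:**
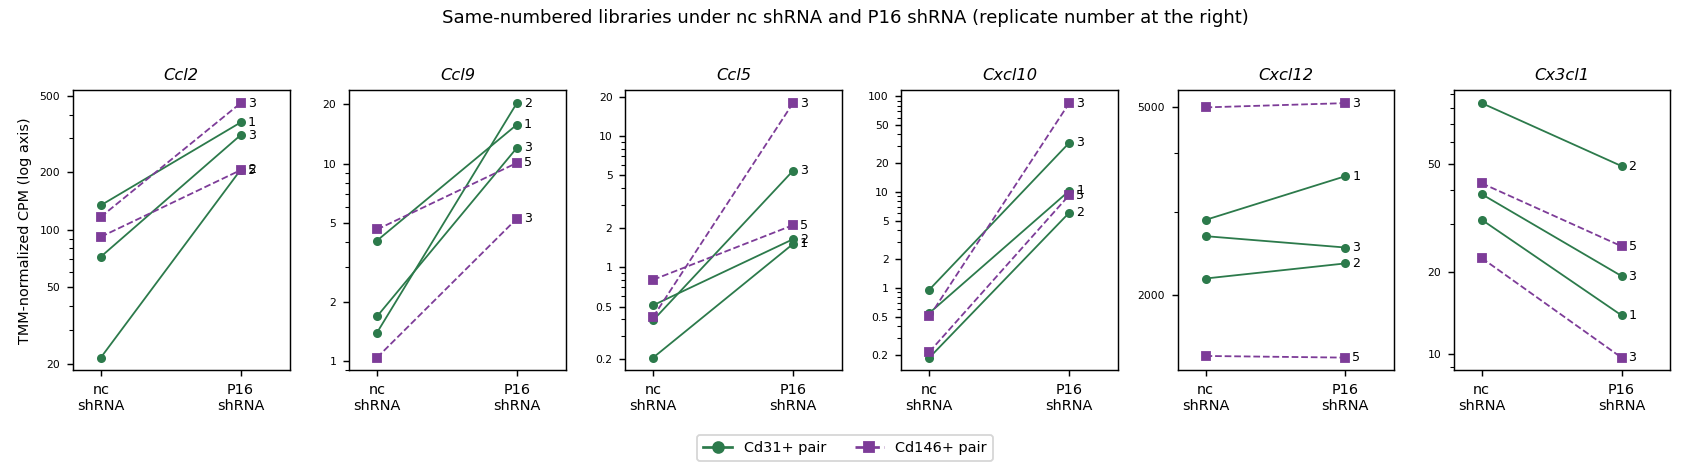
TMM-normalized CPM (log axis) of 6 chemokines in the same-numbered libraries under nc shRNA and P16 shRNA, with the replicate number at the right, for the 3 Cd31+ pairs (circles) and the 2 Cd146+ pairs (squares). All 5 lines go up for Ccl2, Ccl9, Ccl5 and Cxcl10, all 5 go down for Cx3cl1, and those of Cxcl12 run between 0.946 and 1.24 times the control.

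With 3 libraries against 3, the smallest two-sided p of an exact permutation test is 0.1, and the 4 genes whose groups did not overlap reached it in both populations. A term for the Xist libraries in the Cd146+ comparison left Ccl2 (log2 fold change 1.71), Ccl5 (3.83), Ccl9 (1.74), Cxcl10 (7.12) and Cx3cl1 (-1.53) on the same side, with edgeR adjusted p between 0.182 and 0.415. The summed endothelial markers were lower in P16 shRNA than in nc shRNA libraries of each Cd31+ pair (285 against 499, 516 against 599 and 579 against 990 CPM), and 1 of the 10 markers, Mcam, had an unadjusted p under 0.05 (log2 fold change -1.23, edgeR adjusted p = 0.127). The summed mesenchymal markers were higher in each pair (51130 against 37830, 24139 against 20222 and 34604 against 29793 CPM), with 1 of 9 tested, Col3a1, at an unadjusted p under 0.05 (log2 fold change 0.89, edgeR adjusted p = 0.156). The macrophage sum was lower in each pair (109 against 143, 48.3 against 67.6 and 29.4 against 38.2 CPM). None of its 7 tested markers was under 0.05, a threshold met by 19.8% of all genes tested in Cd31+ cells. Lyz2 made up much of that sum, and singly 4 of the 7 markers had a positive log2 fold change (median 0.27), and 5 of 7 in Cd146+ cells (median 0.70). In the Cd146+ pairs 3 and 5, the endothelial sum was 302 against 336 (mostly Eng) and 1479 against 1666 CPM. The macrophage sum was 16.6 against 24.9 and 260 against 301 CPM, and the mesenchymal sum 31680 against 27473 and 30675 against 26725 CPM. The part of these shifts in the chemokine values was not tested.

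The second question was whether the P16 construct moved the chemokines. In Cd31+ cells, none of the 8 tested members had an unadjusted p under 0.05, against 3.73% of all genes, none passed adjustment, against 0%, and all overlapped between the groups, against 10.7% of genes that did not. The log2 fold changes ran from -0.30 ± 0.55 SE for Cxcl12 to 0.68 ± 0.72 SE for Cxcl10. Cxcl10 lay at 0.897, 1.11 and 2.09 CPM with P16 and at 0.305, 0.492 and 1.73 CPM with the empty vector. Ccl9 lay at 3.06, 1.43 and 2.47 CPM with P16 and at 3.3, 1.92 and 2.19 CPM with the empty vector, and Ccl5 between 0.254 and 1.16 CPM in all 6 libraries. With the 2 shared numbers as a block, Ccl7 passed adjustment (log2 fold change 0.89 ± 0.23 SE, edgeR adjusted p = 0.0269, against 0.632% of all genes), with 28.3 against 12.1 CPM in pair 2 and 25.7 against 17.5 CPM in pair 5, and the log2 fold change of Ccl2 moved from -0.08 to 0.65 ± 0.23 SE (adjusted p = 0.246). With all 12 Cd31+ libraries in the blocked fit, that of Ccl7 was 0.67 ± 0.46 SE (adjusted p = 0.588).

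In Cd146+ cells, 1 of the 9 tested members, Ccl9, had an unadjusted p under 0.05, against 3.53% of all genes, and none passed adjustment, against 0%. Ccl9 lay at 1.06, 1.31 and 3.69 CPM with P16 (replicates 1, 3 and 5) and at 17.1, 18.9 and 3.23 CPM with the empty vector (replicates 2, 4 and 5), a log2 fold change of -2.67 ± 0.82 SE (edgeR unadjusted p = 0.0168, adjusted p = 0.986). The difference lay between libraries of different numbers, and in the 1 shared number, 5, the ratio was 1.14. With the replicate number as a block over the 12 libraries the sign turned (log2 fold change 0.24 ± 0.38 SE, edgeR adjusted p = 1), a fit in which the empty vector is set against the other constructs by library 5 alone. Ccl7 was the 1 member whose groups did not overlap, against 8.53% of all genes, with 38.2, 148 and 47.2 CPM with P16 and 22.8, 3.89 and 36.7 CPM with the empty vector (log2 fold change 1.86 ± 0.88 SE, edgeR unadjusted p = 0.0794, adjusted p = 0.986). Ccl2 lay at 59.0, 207 and 122 CPM with P16 and at 20.8, 12.9 and 97.1 CPM with the empty vector (log2 fold change 1.54 ± 0.86 SE, edgeR adjusted p = 0.986). Leaving out 1 library moved the log2 fold change of Ccl2 between 1.06 (without P16 library 3) and 2.94 (without empty vector library 5) and that of Ccl7 between 1.03 and 2.53, and in the blocked fit they were 0.22 and 0.27. Both Ccr2 ligands were lowest in empty vector library 4, the library with the lowest Col1a1. In pair 5, Ccl2 was 1.25 times, Ccl7 1.29 times and Cxcl10 0.352 times its control.

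The third comparison set the 6 control libraries of the Cd146+ cells against the 6 of the Cd31+ cells. Replicate numbers recur among these controls (1 and 2 in Cd31+, 5 in Cd146+ cells). The 6 libraries of a population are therefore not independent, while the fit had no block for the number, so its p-values may be too small. Of the 8 members tested, Cxcl1 alone had an unadjusted p under 0.05, against 17.9% of all genes, and none passed adjustment, against 0%. Cxcl1 had 4.06 to 11.1 CPM in Cd146+ and 0.813 to 4.32 CPM in Cd31+ control libraries, so that the ranges overlapped by little (means 6.31 ± 2.55 and 2.2 ± 1.42 CPM, SD, n = 6 each). Its log2 fold change was 1.57 ± 0.44 SE (edgeR unadjusted p = 0.00438, adjusted p = 0.149), and 1.34 without the 4 Xist libraries (adjusted p = 0.294). Xist libraries made up 3 of the 6 Cd146+ and 1 of the 6 Cd31+ controls. Ccl9 was highest in 2 Cd146+ empty vector libraries and had a log2 fold change of 1.18 ± 0.71 SE (edgeR adjusted p = 0.391), which fell to 0.46 without the Xist libraries. Cxcl12 had a mean of 3021 ± 1909 CPM in Cd146+ and 2377 ± 933 CPM in Cd31+ controls, and Cx3cl1 54.1 ± 18.6 and 51.0 ± 26.0 CPM (SD, n = 6 each).

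Whether silencing acted differently in the 2 populations was fitted over all 24 libraries. None of the 9 members tested had an unadjusted p under 0.05, against 1.20% of all genes, and none passed adjustment, against 0%. The difference of the log2 fold changes, Cd146+ minus Cd31+, was 1.86 ± 1.60 SE for Cxcl10, 1.22 ± 1.47 SE for Ccl5 and -0.85 ± 0.95 SE for Ccl9 (edgeR adjusted p = 1 for each). With the replicate number as a block within each population, Ccl9 alone had an unadjusted p under 0.05 (-1.17 ± 0.47 SE, edgeR unadjusted p = 0.024, adjusted p = 0.986), against 4.55% of all genes. Without P16 shRNA library 3 of the Cd146+ cells, the first became -0.47 and the second -0.65.

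Across the 24 libraries, which share their replicate numbers and constructs, the log2 CPM of Ccl2 and Ccl7 correlated with Pearson's r = 0.891, and with r = 0.893 after the mean of each group was taken out, the highest of the 45 pairs of members in the first measure. Whether the authors' counting split reads of such related genes was not tested, and its handling of multiple matches is not stated. Ccl5 and Cxcl10 correlated with r = 0.821 (0.544 within groups), and Ccl2 and Cx3cl1 with r = -0.801 (-0.687 within groups). Among 13414 genes with a mean of at least 1 CPM, the genes most like Cxcl10 were Zbp1 (r = 0.942), H2-K1 (0.919) and Parp9 (0.918), and those most like Ccl5 were Oas1b (0.930), Rsad2 (0.923) and Parp14 (0.916). The genes most like Ccl2 were Gm8773 (r = 0.896), Zwint (0.894) and Ccl7, and those most like Ccl7 were Ccl2, Gda (0.889) and Ptgs1 (0.879). For Cxcl12 they were Trib1 (r = 0.931), Aldh6a1 (0.889) and Abhd17c (0.865), for Cx3cl1 Cpeb1 (0.896), Cys1 (0.864) and Ap2a1 (0.859), and for Cxcl1 Tmem45a (0.892), Emilin1 (0.881) and Fgf11 (0.832). Ccl9 had lower values, with Ndrg2 (r = 0.801), Psd3 (0.791) and Plod2 (0.790). Cxcl5 and Cxcl9 were too sparse for such a comparison.

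Genes of the interferon and NF-κB pathways were also listed. Both lists mix signalling genes with genes that the pathways induce, such as Ifit3 and Icam1, and the counts do not tell these apart. Of 25 genes of the interferon and JAK-STAT list, 23 were tested after silencing. At an unadjusted p below 0.05 the Cd31+ cells had 13 higher and 1 lower, against 19.8% of all genes tested. The Cd146+ cells had 11 higher and 1 lower, against 11.6%. None passed adjustment in either population, against 1.30% and 0% of all genes. The median log2 fold change of the list was 0.79 and 1.01. Ifit3, an interferon-induced gene, had log2 fold changes of 3.88 ± 1.25 SE (edgeR adjusted p = 0.173) and 4.74 ± 1.10 SE (adjusted p = 0.382). The receptor and kinase genes Ifnar1, Jak1 and Jak2 had values between -0.48 and -0.08, Jak1 being the 1 lower gene in each population. The receptor gene Ifnar2 was among the higher genes in Cd31+ cells (0.33, edgeR unadjusted p = 0.0233) and had -0.00188 in Cd146+ cells. The interferon gene Ifnb1 failed the count filter. Of 22 NF-κB genes, 19 were tested. At the unadjusted threshold the Cd31+ cells had 5 higher and 2 lower, against 19.8% of all genes. The Cd146+ cells had 2 higher and 1 lower, against 11.6%. The abundant ones, Vcam1, Rela, Icam1 and Ikbkg, had log2 fold changes between -1.17 and 0.82, with no unadjusted p under 0.05. Those below it, named for that reason, were Il6 (1.63 and 1.52), Tnfaip3 (0.39 and 0.54) and Rel (-0.78 and -1.05) in both populations, and Nfkb2 (0.41), Nfkbia (0.54), Nfkbib (0.27) and Ikbkb (-0.32) in Cd31+ cells, with edgeR adjusted p of 0.0604 or more. With the P16 construct, no tested gene of these lists reached that threshold in Cd31+ cells, against 3.73% of all genes. In Cd146+ cells, Ifnar2 (0.4), Socs3 (1.11), Stat2 (-0.55) and Nfkb2 (0.62) did, against 3.53% of all genes (edgeR adjusted p = 0.986 for each).

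Of 8 genes that cut or release chemokines, Adam10, the sheddase of Cx3cl1 and Cxcl16, fell in Cd31+ cells (log2 fold change -1.77 ± 0.11 SE, edgeR adjusted p = 0.00444). In Cd146+ cells its log2 fold change was -1.67 ± 0.31 SE (edgeR unadjusted p = 0.00112, adjusted p = 0.382). Adam17 and Mmp2 lay between 0.05 and 0.44, and Mmp14 at 0.68 ± 0.23 SE (edgeR adjusted p = 0.178) and 0.19 ± 0.27 SE (adjusted p = 0.789). Of 22 chemokine receptor genes, 4 were tested in Cd31+ and 8 in Cd146+ cells. There, 0 and 1 had an unadjusted p under 0.05, against 19.8% and 11.6% of all genes. Ackr3, the scavenging receptor of Cxcl12, was the most abundant (mean 70.1 CPM) and had log2 fold changes of -0.28 ± 0.39 SE and -0.33 ± 0.55 SE. Cxcr6, the receptor of Cxcl16, had 1.88 ± 0.84 SE and 1.94 ± 0.43 SE (edgeR adjusted p = 0.282 and 0.382). Ackr4, a scavenging receptor, had -0.39 ± 0.73 SE in Cd146+ cells. Of the 27 other chemokine genes, 6 and 11 were tested. Of these, 2 and 1 were higher at an unadjusted p under 0.05, against 19.8% and 11.6% of all genes called in either direction. Cxcl16, the most abundant of them with a mean of 16.6 CPM, had 0.29 ± 0.25 SE and 0.65 ± 0.56 SE. Ccl25, Ccl27a and, in Cd146+ cells, Cxcl15 lay between -0.22 and 0.68. Pf4 had 2.13 ± 0.86 SE in Cd31+ cells (edgeR adjusted p = 0.237), and Ccl20, named here like Pf4 because of its value, had 3.89 ± 0.93 SE (edgeR adjusted p = 0.101) and 3.16 ± 0.90 SE (adjusted p = 0.384) at a mean of 1.32 CPM.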

How the data were processed

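RNA sequencing was analysed in 24 libraries grouped by their labels. The authors deposited 1 table with unnormalized read counts per gene, in whole numbers, and every library's column was matched to its title. The FPKM values were deposited by the authors beside them, and equal count over length and library total times 1 factor per library. The gene length in the same table is another value that the authors deposited, in bases. The sequencing provider Novogene did the processing. The submitters' notes name fastp and mm9, and the aligner, the counting tool and its settings on strand and multiple matches are not given in the sources used here. The authors' own group means, log2 fold changes and p-values were not used.

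Counts were tested with edgeR 4.0.16 in R 4.3.3: filterByExpr, TMM, robust quasi-likelihood fit, two-sided test, Benjamini-Hochberg adjustment over all genes tested (14358 to 16524). The 6 libraries of a construct and its control formed each comparison. The populations were compared over 12 control libraries with the construct as a term, and the difference of the silencing effects was fitted over 24. The SE of a log2 fold change is its size over the square root of the F statistic. The threshold was 0.05, both for the unadjusted p, as in the study, and for the adjusted p. A count of 3 was the floor. Libraries held 15409767 to 26470392 reads, and TMM factors ran from 0.934 to 1.07. Ccl5, Cxcl5, Cxcl9 and Cxcl10 had few reads in the controls, so counting error weighs most there. The methods were tested on simulated data.

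After group means were taken out, the 13 same-numbered Cd31+ pairs had r of at least 0.391 (median 0.627) and the 10 Cd146+ pairs of at least 0.353 (median 0.739), against medians of -0.19 and -0.0883 for different numbers, so the numbers, which come from the labels, were taken to pair libraries within a population. What they stand for is not stated.

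The members and lists were chosen with earlier results of these data known. Named were the 10 members, Cdkn2a, the 4 most abundant genes of a pathway list, the 3 most abundant of a marker list, and the 3 genes most correlated with a member. 1 gene of the receptor list is not reported here. Other markers and list genes were named after their values were seen. Alternatives were other count filters (all genes with at least 1 count, a mean of at least 10), DESeq2 1.42.0 size factors and Wald test, 12 libraries of a population, replicate blocks, and each library left out. Added after the data were seen were fits without Cd146+ libraries numbered 3 (and 4), a term for Xist libraries, and a fit without them. Promoters came from RefSeq.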

Additional observations from a re-analysis of the deposited data

How the results depend on the processing

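Leaving out 1 library at a time, between 3 and 5 chemokines had an unadjusted p under 0.05 after silencing in Cd31+ cells, against 13.5 to 19.4% of all genes. In Cd146+ cells between 3 and 5 did, against 5.12 to 14.9%. Past adjustment were 0 to 1 in Cd31+ cells, against 0 to 0.43%, and 0 in Cd146+ cells, against 0%. With P16 the ranges at the unadjusted threshold were 0 to 1 in Cd31+ (1.25 to 6.95% of all genes) and 0 to 2 in Cd146+ cells (1.42 to 8.47%). None passed adjustment there, against 0%. Between the populations the range was 1 to 2 (12.3 to 20.2%). Of the counts past adjustment after silencing in Cd31+ cells (1), 2 were found with all genes of at least 1 count (3.73% of all genes), 3 with DESeq2's Wald test (7.68%), 2 with 12 libraries and no replicate block (2.42%), and 5 with either replicate block (18.8% with 2 groups, 16.8% with 12 libraries). In Cd146+ cells (0), 3 passed with DESeq2 (2.2%) and 4 with the 12-library block (8.33%), where 8 had an unadjusted p under 0.05 (27.4%). Without the Cd146+ libraries numbered 3, 3 did after silencing (9.05%) and 0 with P16 (1.54%). The Wald test gave 3 with P16 in Cd146+ cells (5.33%) and 1 past adjustment between the populations (4.37%). The block with 2 groups gave 2 (7.98%), of which 1 past adjustment (0.632%), with P16 in Cd31+ cells, and the block within each population gave 1 for the difference of the silencing effects (Ccl9, -1.17). Numbers are shared between populations, but same-numbered libraries of different populations correlated with a median r of 0.129, so that block was not read as a pairing (Cxcl1 1.54, edgeR adjusted p = 0.0706, Cd146+ against Cd31+).

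Not every fold change was followed through the fits without 1 library, and with P16 in Cd31+ cells only those of Cxcl10 and Cxcl12 were. The signs named here are therefore not a full list. Among those followed, signs turned for Cxcl1 after silencing (lowest -0.17 in Cd31+ and -0.12 in Cd146+ cells, highest 0.70 and 0.64). They also turned for Cxcl12 in Cd31+ cells (-0.0872 to 0.25), Ccl7 in Cd146+ cells (-0.20 to 1.25) and Cxcl12 with P16 in Cd31+ cells (-0.64 to 0.32). The differences of the silencing effects ran from -0.47 to 2.85 for Cxcl10, -0.65 to 2.09 for Ccl5 and -1.48 to 0.39 for Ccl9. Without the Cd146+ libraries numbered 3, Cxcl1 after silencing was -0.11 and the difference for Ccl5 -0.63. With the replicate block, Cxcl12 in Cd146+ cells was 0.00846 with 2 groups and 0.0521 with 12 libraries, and Ccl9 with P16 0.24. The causes were not tested, and the fits that leave out libraries also have fewer of them. With the block of 2 groups, Ccl2 with P16 in Cd31+ cells also turned (from -0.08 to 0.65). DESeq2's size factors did not change how many members lay apart between groups.

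Silencing in Cd146+ cells rests on 2 same-numbered pairs, and P16 in Cd146+ cells on 1. Cxcl9 and, in Cd31+ cells, Cxcl5 were near or under the floor of 3 reads, so that differences in them were not detectable at this depth.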
